A study of Mus musculus with 2 samples.

Results

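The genes described here are the enzymes that conjugate electrophiles to glutathione and the dehydrogenases that oxidize aldehydes and alcohols. With them are the genes of the stress-responsive transcription factor NRF2, its inhibitor KEAP1 and a core set of NRF2 targets. They were chosen by name: every array probe set annotated to exactly 1 gene whose symbol begins with Gsta, Gstk, Gstm, Gsto, Gstp, Gstt, Gstz, Mgst or Aldh, or with Adh and a number, together with Nqo1, Hmox1, Gclc, Gclm, Gsr, Srxn1, Txnrd1, Nfe2l2 and Keap1. This gave 96 probe sets of 45037, for 59 genes of 18193: 23 glutathione transferase genes, 20 aldehyde dehydrogenase genes, 7 alcohol dehydrogenase genes and 9 genes of the NRF2 group. The families were picked with the ratios between the arrays already known, so their ratios are given as a description.

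The cells were primary osteoblasts from the calvaria of 7-day-old CD1 mice, kept for 24 h in medium with albumin in place of serum. The DMSO culture then received the vehicle for 24 h, and the PP1 culture received 2 µM PP1, labelled as a blocker of the c-Src tyrosine kinase, for the same time. There was 1 array for each, so there is no replicate error, no test and no p-value. Whether animals were pooled for a culture is not given in the sources used here.

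Glutathione transferases join the tripeptide glutathione to reactive molecules, which makes them easier to export and less able to damage proteins and DNA. Aldehyde dehydrogenases turn aldehydes into acids, among them the vitamin A aldehyde into retinoic acid, a hormone-like regulator of skeletal cells. NRF2, encoded by Nfe2l2, is held in check by KEAP1, and when released it binds antioxidant response elements near genes for glutathione synthesis, quinone reduction and thioredoxin reduction.

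The core of that element, TGACNNNGC, was searched for on both strands of RefSeq promoters of assembly GRCm38.p6, from 250 bases before to 50 after each gene's start. Of the members, 46 had an entry, and 11 of these (23.9%) held the core, against 3781 of 27025 genes in the table (14.0%). In the NRF2 group 4 of 6 did, in the glutathione transferases 4 of 21, in the aldehyde dehydrogenases 2 of 14 and in the alcohol dehydrogenases 1 of 5. Gclc, Gsr, Hmox1, Aldh1a3, Aldh1l2, Aldh2, Aldh3a1, Aldh3b2, Aldh7a1, Adh6b, Adh6-ps1, Gsta4 and Gstt2 had no entry. The 6 windows below are shown because they place the element in members of both the NRF2 group and the transferases, whose ratios are set against each other further on. Each is written 5′ to 3′ along the gene, and capitals mark the core or its reverse complement.

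Gclm, chr3:122245393-122245461, plus strand: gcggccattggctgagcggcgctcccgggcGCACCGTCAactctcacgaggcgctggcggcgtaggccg
Txnrd1, chr10:82859084-82859152, plus strand: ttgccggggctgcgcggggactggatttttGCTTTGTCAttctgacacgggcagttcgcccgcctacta
Nfe2l2, chr2:75704865-75704913, minus strand: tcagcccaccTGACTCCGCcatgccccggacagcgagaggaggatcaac
Mgst1, chr6:138140441-138140509, plus strand: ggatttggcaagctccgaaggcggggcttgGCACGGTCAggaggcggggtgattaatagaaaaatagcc
Gstm5, chr3:107895782-107895850, plus strand: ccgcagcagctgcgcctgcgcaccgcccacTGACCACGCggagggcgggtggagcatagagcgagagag
Gstm7, chr3:107931705-107931773, minus strand: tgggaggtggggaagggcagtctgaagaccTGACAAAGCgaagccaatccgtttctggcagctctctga

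In Gclm, Txnrd1 and Mgst1 the core lies on the strand opposite to the gene, and in Nfe2l2, Gstm5 and Gstm7 on the gene's own strand. It begins 134 bases before the start of Gclm, 92 before that of Txnrd1, 56 before that of Mgst1 and 42 before that of Gstm5. The match in Srxn1 lies after the gene's start and is not printed. Of the members that were at least 2-fold higher with PP1, 8 had an entry and 1 of them, Gstm7, held the core, against 8 of 28 other measured members. These shares are 12.5% and 28.6%, beside 14.0% of all genes searched. Nqo1 and Keap1 had an entry and held no core, and a core outside the searched stretch would be missed. The arrays do not measure binding to these sites.

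Signals are linear MAS5 intensities, with the PP1 array multiplied by 1.68 to bring both arrays to the same trimmed mean. A signal below 31.7, the median of all probe sets on both arrays, was set to that floor, and a gene is called measured when its brightest probe set is above the floor on at least 1 array. Ratios are log2 of PP1 over DMSO. Different probe sets of a gene, each above the floor on both arrays, gave ratios with an SD of 0.41 over 4745 genes. That is the only error these arrays show, and it does not measure differences between cultures.

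With PP1, 6 of 16 measured glutathione transferases, 3 of 19 aldehyde dehydrogenases, 1 of 3 alcohol dehydrogenases and 0 of 9 genes of the NRF2 group were at least 2-fold higher by their brightest probe sets. Of the 59 genes, 47 were measured, and 35 of them lay above 0, where 6175 of all 12111 measured genes did. At least 2-fold higher were 10: Gstt3, Aldh1a7, Gstm1, Aldh3a1, Gstt1, Adh1, Gstm7, Aldh6a1, Gstm2 and Gstt2. Only Aldh1a3 was at least 2-fold lower. Over all measured genes, 2.97% were at least 2-fold higher and 1.55% at least 2-fold lower. The median log2 ratio of the measured members was 0.46, against 0.01 for all measured genes. That 0.46 is the ratio of Aldh8a1, whose DMSO signal was set to the floor. Over members above the floor on both arrays the median was 0.43, against -0.005 for all such genes. Gstm7, Aldh5a1 and Aldh8a1 were above the floor only with PP1, and Aldh1a3 only with DMSO, so these had to differ; of the 43 members above the floor on both arrays 9 were at least 2-fold higher and none lower, where 2.72% of all such genes were higher. All these directions are relative to the bulk of genes. Without scaling, most PP1 signals were lower than the DMSO signals, and the median of all genes stood at -0.70. The median of the glutathione transferases was then -0.05, and 2 members were at least 2-fold higher and 7 at least 2-fold lower (50 and 2877 of all genes). Scaled to 18 bacterial hybridization controls, the counts were 2 and 9 members (35 and 3774 genes), and centred on the median, 8 and 2 (223 and 351 genes).

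**Figure D1:**
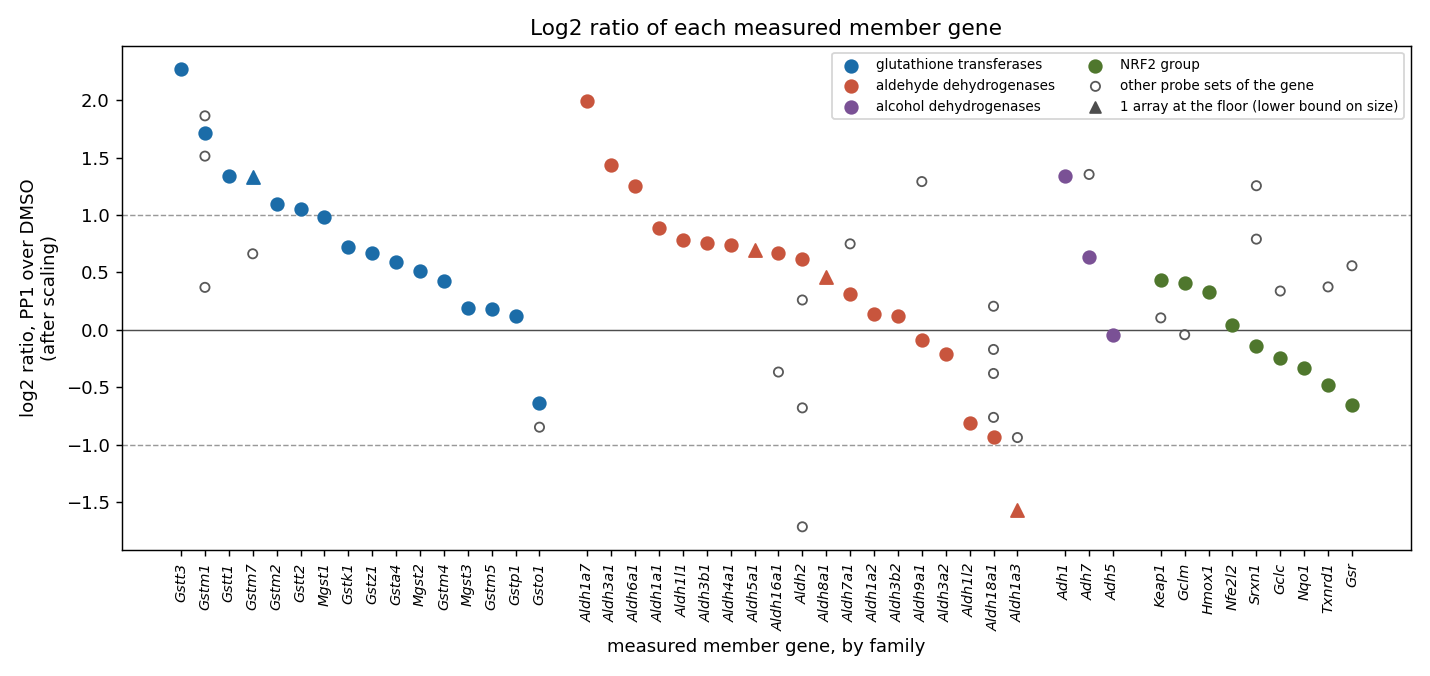
Log2 ratio of PP1 over DMSO (vertical axis) for each of the 47 measured member genes, ordered within 4 families; filled symbols are the brightest probe set of a gene, open circles its other probe sets above the floor, triangles lower bounds among the filled symbols, and dashed lines mark 2-fold. In the glutathione transferases 15 of 16 filled symbols lie above 0, whereas in the NRF2 group 4 of 9 do. Over all probe sets above the floor, 19 of 21 transferase ones and 10 of 16 of the NRF2 group do. Over all measured genes, 6175 of 12111 lie above 0.

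Among glutathione transferases, 15 of 16 measured genes were above 0, 6 were at least 2-fold higher and none was at least 2-fold lower, with a median log2 ratio of 0.70. The single gene below 0 was Gsto1. Of the 21 transferase probe sets above the floor, 19 were above 0 and 8 at least 2-fold higher. Over all named probe sets above the floor, 4.33% were at least 2-fold higher. Gsta2, Gsta3, Gstm3, Gstm6, Gsto2, Gstp3 and Gstt4 were not above the floor on either array, which says only that these probe sets gave no usable ratio.

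The theta class, soluble transferases that also act on small halogenated compounds, had the highest median of the classes, 1.34 over 3 genes. Gstt3 had a signal of 78.2 with DMSO and 377.8 with PP1, which is 4.83-fold higher (log2 ratio 2.27) and the highest ratio of any member. Gstt1 went from 117.8 to 297.8, or 2.53-fold higher. Gstt2 went from 45.8 to 95.0, or 2.07-fold higher, from a signal close to the floor. All 3 measured theta genes were thus at least 2-fold higher, each by its only probe set. Gstt3, Gstt1, Gstt4 and Gstt2 lie next to each other in the RefSeq gene order. The genes directly beside this cluster, Ddt, a tautomerase related to Mif, and Mif itself, had ratios of -0.12 and -0.27. The next ones, Cabin1 and Derl3, had 0.63 and 0.27, the latter a lower bound from a DMSO signal under the floor.

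The mu class, the main cytosolic transferases of many mouse tissues, was higher by varying amounts. Gstm1 had a signal of 219.6 with DMSO and 721.9 with PP1, which is 3.29-fold higher. Its 4 probe sets were all above 0, with log2 ratios of 1.86, 1.72, 1.51 and 0.37. Gstm2 went from 300.4 to 640.2, or 2.13-fold higher, by 1 probe set. For Gstm7 the DMSO signal of 21.7 was under the floor and the PP1 signal was 79.6, so that it was at least 2.51-fold higher. Its other probe set gave 32.1 and 50.9, a log2 ratio of 0.66. Gstm4 (65.9 and 88.6, log2 ratio 0.43) and Gstm5 (1014 and 1147, 0.18) lay closer to the bulk of genes. Gstm5, Gstm7, Gstm6, Gstm3, Gstm2, Gstm1 and Gstm4 follow each other in this order among protein-coding genes, so large and small ratios occurred within 1 cluster. The nearest measured genes on either side, Csf1, the macrophage growth factor, and Ampd2, an AMP deaminase, had ratios of -0.02 and -0.24. Mu genes are close copies of each other and a probe set can read more than 1 of them, so single mu ratios are uncertain; this was not tested.

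**Figure D2:**
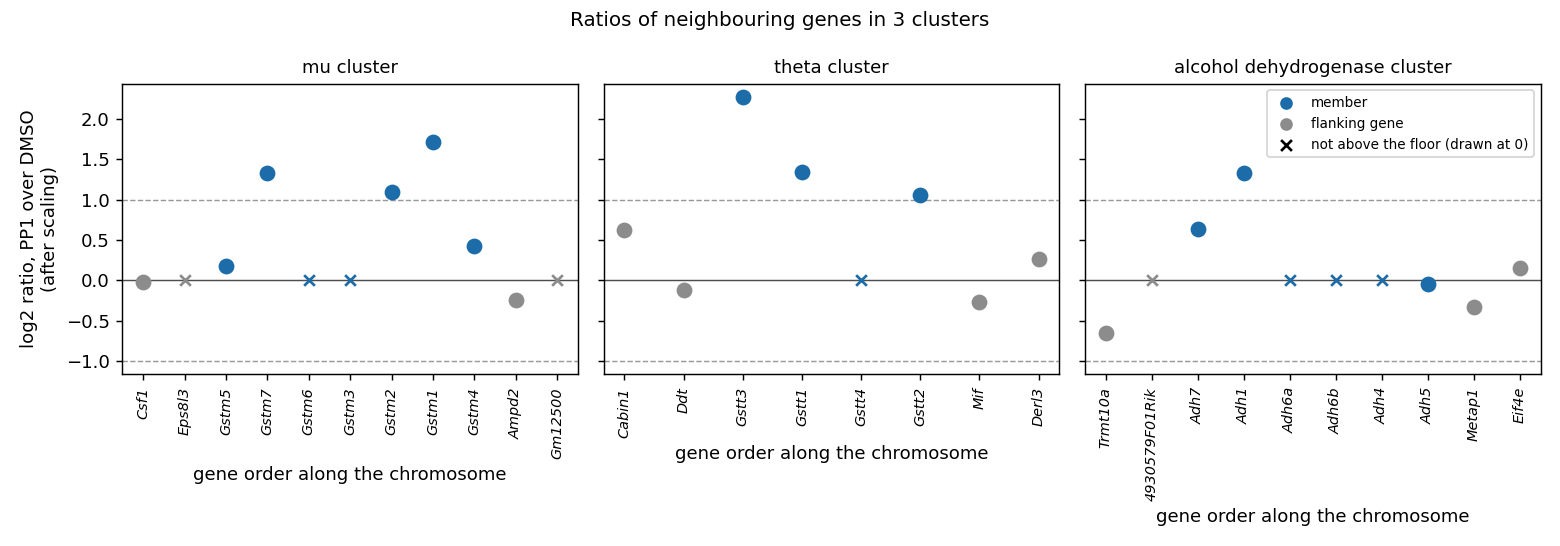
Log2 ratio of PP1 over DMSO (vertical axis) for neighbouring protein-coding genes in RefSeq order (horizontal axis, not to distance). The clusters are mu, theta and alcohol dehydrogenase. Blue marks members, grey the flanking genes and crosses genes not above the floor. Gstm7 and Derl3 are lower bounds. Gstt3 at 2.27 and Gstm1 at 1.72 stand highest, and the measured flanking genes lie between -0.65 and 0.16 except Cabin1 at 0.63 and Derl3 at 0.27.

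The remaining transferases lay within 2-fold, and all but Gsto1 had a ratio above 0. Mgst1, the membrane-bound transferase of the endoplasmic reticulum and mitochondria, went from 1074 to 2120, a 1.97-fold difference that falls just short of the 2-fold line, while Gstt2 at 2.07-fold falls just inside it. Gsta4, which clears the lipid peroxidation product 4-hydroxynonenal, went from 571.3 to 858.8 (log2 ratio 0.59). Gstk1, the mitochondrial and peroxisomal transferase, and Gstz1, an enzyme of tyrosine breakdown, were 1.65-fold and 1.59-fold higher. Mgst2 stood at 0.52 and Mgst3 at 0.19. Gstp1, the pi-class enzyme, had almost the same signal on both arrays, 4044 and 4388 (log2 ratio 0.12). Gsto1, the omega-class enzyme that reduces dehydroascorbate and arsenic compounds, was lower by both probe sets, from 2340 to 1506 (1.55-fold lower) and from 1521 to 846.0 (log2 ratio -0.85).

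Of the 19 measured aldehyde dehydrogenases, 14 were above 0, 3 were at least 2-fold higher and 1 at least 2-fold lower, with a median of 0.62. That median is the ratio of Aldh2. The 14 include Aldh2 and Aldh16a1, whose probe sets lay on both sides of 0. Aldh1b1 was not above the floor. The family was less uniform by probe set: of 30 above the floor, 18 were above 0 and 12 below, with a median of 0.23, 4 at least 2-fold higher and 2 at least 2-fold lower (1.48% of all named probe sets were lower by as much).

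The enzymes that make retinoic acid went different ways. Aldh1a1 had a signal of 206.4 with DMSO and 382.1 with PP1, which is 1.85-fold higher. Aldh1a2, the main enzyme of the embryo, had 191.5 and 210.4, a ratio of 0.14. Aldh1a3 had 94.3 with DMSO and 23.8 with PP1, under the floor, so it was at least 2.97-fold lower. A further probe set gave 60.7 and 20.1, also a bound (-0.94). The third probe set of Aldh1a3 was under the floor on both arrays. Aldh1a7, a rodent relative of Aldh1a1 and its neighbour in the gene order, went from 49.6 to 197.3, or 3.98-fold higher, from a dim signal. As near copies, Aldh1a1 and Aldh1a7 may share probes, which was not tested.

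Members of class 3, which oxidize medium- and long-chain and aromatic aldehydes, also differed among themselves. Aldh3a1, the enzyme known from cornea and induced by aryl hydrocarbons, went from 70.1 to 189.0, or 2.70-fold higher. Its neighbour Aldh3a2, the fatty aldehyde dehydrogenase, had 248.9 and 215.3, a ratio of -0.21. Aldh3b1 was 1.68-fold higher, from 44.0 to 74.1, and Aldh3b2 stood at 0.12. Adjacent position thus did not go with a like ratio for the Aldh3a pair.

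Enzymes of amino acid, choline and folate metabolism lay on both sides of 0. Aldh6a1, the mitochondrial enzyme of valine and thymine breakdown, went from 220.3 to 523.8, or 2.38-fold higher. Aldh4a1, which degrades proline, was 1.67-fold higher (86.6 and 144.4). Aldh18a1, which starts proline synthesis, was 1.91-fold lower by its brightest probe set (2150 and 1124). The 5 probe sets of Aldh18a1 gave -0.94, -0.76, -0.38, -0.17 and 0.21, and the only 1 not marked as shared by its identifier was that at -0.17. For proline, then, the brightest probe sets of the breakdown and the synthesis enzyme lay on opposite sides of 0. The folate enzymes did too: the cytosolic Aldh1l1 was 1.72-fold higher (106.5 and 183.5), and the mitochondrial Aldh1l2 was 1.75-fold lower (1250 and 714.7). Aldh5a1, of GABA breakdown, was at least 1.62-fold higher from a DMSO signal under the floor, Aldh7a1, of lysine breakdown, stood at 0.31, and Aldh8a1 was at least 1.38-fold higher.

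For some aldehyde dehydrogenases the probe sets disagreed. Aldh2, the mitochondrial acetaldehyde enzyme, was 1.53-fold higher by its brightest probe set (1031 and 1582), but its others gave 177.8 and 54.2 (-1.71), 139.9 and 87.4 (-0.68), and a bound of 0.26. Aldh9a1, of carnitine synthesis, stood at -0.09 by 1 probe set and at 1.29 by the other (134.5 and 329.1). Aldh16a1 stood at 0.67 and -0.37. No direction is given for Aldh2, Aldh9a1 and Aldh16a1, nor for Aldh18a1, whose probe sets also lay on both sides of 0.

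Of 7 alcohol dehydrogenases, 3 were measured. Adh1, which oxidizes ethanol and retinol, went from 70.8 to 178.5, or 2.52-fold higher. Its neighbour Adh7, the retinol-active enzyme of epithelia, was higher by both probe sets, from 139.9 to 217.0 (0.63) and from 97.5 to 248.9 (1.35). Adh5, the glutathione-dependent formaldehyde dehydrogenase at the far end of the same cluster, had 1702 and 1646, a ratio of -0.05. Adh6a, Adh6b and Adh4, which lie between Adh1 and Adh5, were not above the floor, nor was Adh6-ps1.

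In the NRF2 group all 9 genes were measured, none was at least 2-fold higher or lower, and 4 were above 0. The median log2 ratio was -0.14, which is that of the brightest probe set of Srxn1. Nqo1, the quinone reductase and a standard NRF2 target, had a signal of 151.1 with DMSO and 120.1 with PP1 (1.26-fold lower). Hmox1, heme oxygenase, had 1191 and 1500 (1.26-fold higher). Both ratios are smaller than the SD of 0.41 between probe sets. The factor itself, Nfe2l2, had 1505 and 1553 (0.05), and its inhibitor Keap1 had 223.9 and 301.9 (0.43), or 0.10 by its other probe set.

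The enzymes of glutathione supply and thioredoxin reduction in this group lay near 0 or differed between probe sets. The subunits of glutamate-cysteine ligase, Gclc and Gclm, stood at -0.25 (228.8 and 193.0) and 0.41 (327.4 and 433.9), and at 0.34 and -0.04 by their other probe sets. Glutathione reductase, Gsr, had 351.3 and 222.9 by 1 probe set (-0.66) and 155.8 and 229.3 by the other (0.56). Txnrd1, the cytosolic thioredoxin reductase, had 1072 and 768.3 (-0.48) and 55.0 and 71.2 (0.37). Srxn1, which repairs oxidized peroxiredoxins, had 294.5 and 267.9 (-0.14) by its brightest probe set, marked as shared, but 87.6 and 209.1 (1.25) and 91.7 and 158.5 (0.79) by the others. Over all 16 probe sets of the group above the floor, 10 were above 0 and 6 below, 1 was at least 2-fold higher, and the median was 0.22, close to the 0.23 of the aldehyde dehydrogenase probe sets. Without shared probe sets the median over 8 genes, relative to all measured genes, was 0.31 in place of -0.15, so the group's side of 0 depends on the probe set.

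**Figure D3:**
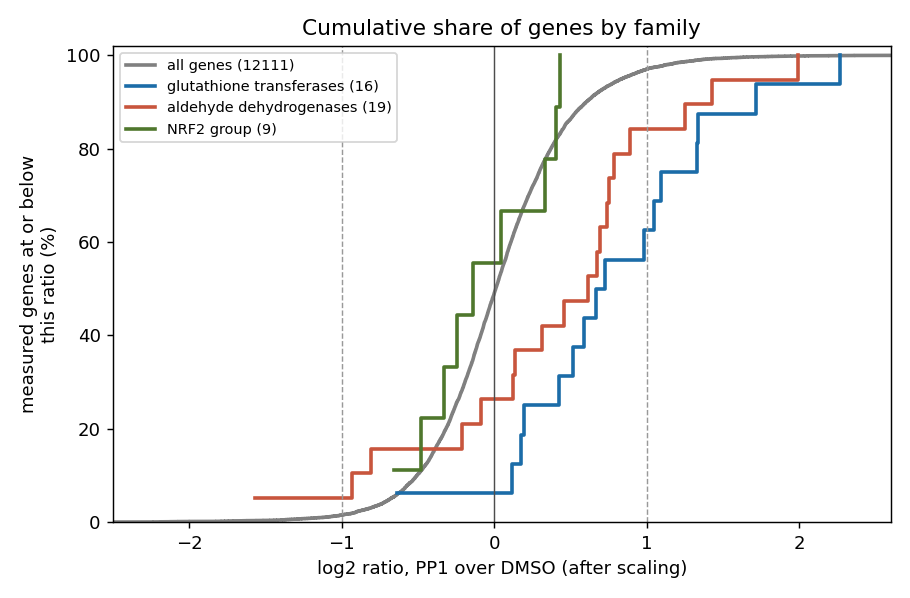
Cumulative share of measured genes (vertical axis, percent) at or below each log2 ratio (horizontal axis) for all 12111 measured genes, the 16 glutathione transferases, the 19 aldehyde dehydrogenases and the 9 genes of the NRF2 group; dashed lines mark 2-fold. The median by brightest probe set is 0.70 for the transferases, 0.62 for the aldehyde dehydrogenases, -0.14 for the NRF2 group and 0.01 for all genes. Over all probe sets above the floor, the medians of these 3 families are 0.67, 0.23 and 0.22.

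Among all genes, dim ones were at least 2-fold higher more often than bright ones, and several of the higher members were dim. Of the 14 members with a mean signal under 126.9, which is 4 times the floor, 5 (35.7%) were at least 2-fold higher, where 4.53% of all genes in that range were. Of the 33 brighter members 5 (15.2%) were, against 2.13% of all genes in their range. In both ranges the share of members was above that of all genes, with 5 higher members in each. The part of dim signal in the members' ratios was not tested. For 16 measured members more than 1 probe set was above the floor; these lay all on 1 side of 0 in 7 genes, against 2678 of 5487 genes of this kind on the whole array. Only Gstm1 and Gstm7, of the 10 at least 2-fold higher, had more than 1 such probe set, and in each all lay above 0. The other 8 rest on 1 probe set each.

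**Figure D4:**
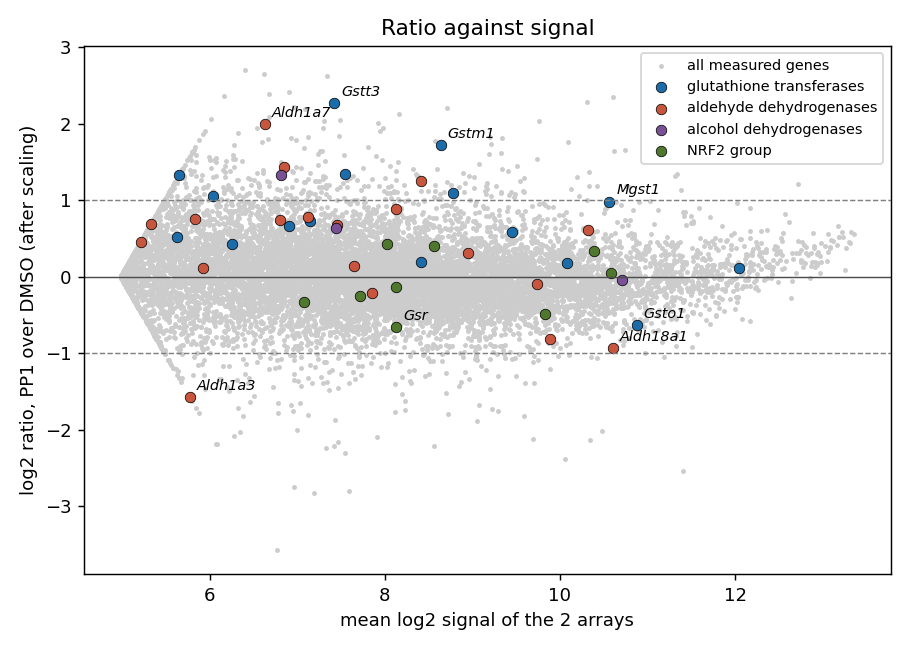
Log2 ratio of PP1 over DMSO (vertical axis) against the mean log2 signal of both arrays (horizontal axis) for all 12111 measured genes in grey and the members coloured by family; dashed lines mark 2-fold. The members at least 2-fold higher include 5 with a mean signal under 126.9 and 5 above it.

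Other genes of glutathione, thioredoxin and NRF2 biology, from lists set by function, had medians near that of all genes. Among 29 further measured NRF2 targets and cofactors, none was at least 2-fold higher or lower, 12 were above 0 and the median was -0.12. The largest ratios there were those of Mafk, a small Maf partner of NRF2 (-0.90), the metallothionein Mt1 (0.71), the NADPH-producing dehydrogenase Idh1 (0.71) and Pgd of the pentose phosphate pathway (-0.60, its 4 probe sets up to 0.17). Of 23 genes for glutathione synthesis, recycling and peroxidases, 3 (13.0%, against 2.97% of all measured genes) were at least 2-fold higher and 1 (4.35%, against 1.55%) lower, with a median of 0.03. Cth, which makes cysteine for glutathione, was 2.43-fold lower (330.2 and 135.9). Glutaredoxin, Glrx, was 2.49-fold higher by the brighter of 2 probe sets (211.3 and 526.0), and the sigma-class transferase Hpgds and the 5-oxoprolinase Oplah were at least 2.57-fold and 2.36-fold higher from DMSO signals under the floor. Of 19 genes for thioredoxins, peroxiredoxins, superoxide enzymes and sestrins, 1 was at least 2-fold higher, the sestrin Sesn3 at 1.16, and the median was 0.00. Sesn1 (0.85), the mitochondrial thioredoxin Txn2 (-0.62, up to 0.34 by other probe sets) and the extracellular dismutase Sod3 (0.51) followed.

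The retinoid and oxidation lists had higher medians. Of 16 measured retinoid genes, 12 were above 0 (6175 of 12111 over all measured genes), 3 (18.8%, against 2.97%) were at least 2-fold higher and none lower, with a median of 0.36. These were Cyp26b1, which degrades retinoic acid (2.62-fold, 44.1 and 115.7), Rarres1, named for its induction by a retinoid (2.47-fold, 330.6 and 815.5), and Crabp1, which binds retinoic acid in the cell (2.28-fold, 407.8 and 928.0). The receptor Rara stood at 0.79 from a dim signal. In the list of aryl hydrocarbon receptor genes and phase I oxidases, 14 of 16 were above 0 and 2 (12.5%) at least 2-fold higher, with a median of 0.33: Xdh, xanthine dehydrogenase, was 3.76-fold higher (127.5 and 479.2) and the aldehyde oxidase Aox1 2.08-fold (66.0 and 137.1). Fmo1 and Maob followed at 0.91 and 0.88. Cyp1a1 and Cyp1a2, the receptor's best-known targets, were not above the floor on either array. Of 8 other conjugating enzymes 1 (12.5%), the methyltransferase Nnmt, was at least 2-fold higher (2.04-fold, 152.2 and 311.0), followed by Tpmt (0.44), Nat2 (-0.38) and Tst (0.33), and the median was 0.15.

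Cell markers and RNA quality were checked beside these results. Of 10 osteoblast markers with a probe set, 6 were measured and 3 of these were above 0: Col1a2, Col1a1 and Alpl stood at 0.52, 0.39 and 0.37, and Dlx5, Sp7 and Ibsp at -0.20, -0.43 and -2.08 (Ibsp from 159.1 to 37.7, close to the floor), while Dmp1, Ifitm5, Mepe and Phex were not above the floor. The summed signal of the 11 fibroblast and periosteum markers was 15978 with DMSO and 22745 with PP1 (8 of 10 measured genes above 0), that of 7 adipocyte markers 3902 and 7366 (5 of 5), and that of 14 macrophage markers 15787 and 18498 (9 of 14). Skeletal muscle markers summed to 1123 and 1332 (7 of 8 above 0), meningeal markers to 9978 and 9781 (4 of 7), cartilage markers to 6085 and 5272 (1 of 6), osteoclast markers to 1697 and 1580 (1 of 5) and endothelial markers to 226.2 and 272.3 (3 of 5), with Pecam1, Emcn and Vwf under the floor. Of the blood markers Alas2 and Hba-a1 were under the floor. The part of these cells in the members' ratios was not tested, and fewer cells of a type cannot be told apart from less RNA per cell. The log2 ratio of 3′ to 5′ signals of control transcripts differed, PP1 minus DMSO, by -0.51 for Gapdh, -0.34 for pyruvate carboxylase and 0.14 for beta-actin, and its part was not tested either.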

How the data were processed

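Expression was measured on 1 Affymetrix mouse array for each of the DMSO and PP1 cultures. The deposited values are linear intensities per probe set made by the authors with MAS5, per the submitters' processing notes, without its version or target scaling. Trizol RNA was turned into biotinylated cRNA, per the labels' protocols. The table held 45101 probe sets, of which 64 were controls; of the others, 34945 had 1 gene, 932 several and 9160 none here.

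Gene names come from GEO's platform annotation, with symbols checked by gene identifier against RefSeq (GRCm38.p6, for names, gene order and promoters only); all 96 member probe sets matched.  The PP1 array was scaled by the mean trimmed by 2% at each end. Low signals were set to the floor of 31.7, the median over both arrays, and each gene was represented by its brightest probe set (mean log2 of both arrays before the floor). With 1 array per group no test was possible, and the number of arrays limits the precision. Genes were counted at 2-fold.

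The members, lists and alternatives were chosen with earlier results of these data known. Every member is named by rule, and from each pathway list up to 4 genes with the largest ratio; cell markers named come from fixed lists, and flanking genes from gene order. Alternatives were 4 other scalings, 2 other floors, the median over probe sets, no shared probe sets, and thresholds of 1.5-fold and 3-fold. A probe set was called shared when its identifier holds a letter before the final at. That mark does not say which sequences it may share. The steps were tested on simulated data in which only brighter genes were changed, by well over 2-fold. Calls on dim genes or close to 2-fold were not covered by it. A comparison of protein sequences was planned and not made. Work was done in Python 3.11.15 with pandas 2.3.3, NumPy 2.4.6 and statsmodels 0.14.6.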

Additional observations from a re-analysis of the deposited data

Results flagged for a closer look

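A probe set shared by Gm3776, Gsta2 and Gsta1, which entered no gene-level result because it matches several genes, was above the floor on both arrays and higher with PP1, with signals of 38.3 and 51.0 and a log2 ratio of 0.41. The ratio is about as large as the SD of 0.41 between probe sets of a gene, and the signals are dim. A probe set shared by Aldh3b2 and Aldh3b3, left out in the same way, had 36.2 with DMSO and 26.8 with PP1. The latter is under the floor, so its ratio of -0.19 is a bound. A further probe set of that pair was under the floor on both arrays.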

How the results depend on the processing

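Against 10 members at least 2-fold higher and 1 lower, the counts were 2 and 7 with the values as deposited. They were 2 and 9 when scaled to hybridization controls and 8 and 2 when centred on the median. With a floor at the 75th percentile, which leaves fewer genes measured (35 members), they were 4 and 0 (111 and 84 of 7526 genes). At 1.5-fold they were 22 and 5 (1282 and 893 of all 12111 measured genes). At 3-fold they were 3 and 0, without a count of all genes to set beside them. The first 3 of these settings, which are scalings, moved the median of all genes by -0.71, -0.80 and -0.17. Relative to that median the counts were 10 and 1 under all 3, and the same 10 higher members kept their 2-fold difference. Each of the 3 only multiplies the whole PP1 array by another factor, which subtracting the median removes apart from the floor. This agreement was thus largely fixed in advance and does not test the scaling. The count of higher members was 10 with loess (306 of 12111 genes) and 11 without a floor (606 of 12111). It was 9 with the median over probe sets (341 of 12133) and 11 without shared probe sets (335 of 10469). Relative to all measured genes, the median of the glutathione transferases lay between 0.63 and 0.70 under all settings. With the higher floor that of all members went from 0.45 to 0.23, that of the aldehyde dehydrogenases from 0.61 to 0.27 and that of the alcohol dehydrogenases from 0.62 to 0.19, and that of the NRF2 group went from -0.15 to 0.31 without shared probe sets. The ratio moved by more than 0.41 for 6 of the 52 named genes that had a value with the higher floor, 5 of 57 without shared probe sets, and, of all 71, 8 with the median over probe sets and 3 without a floor; no gene called at 2-fold changed sign relative to all genes where it had a value, and Aldh1a3 had none with the higher floor. The floor limits dim members such as Gstm7 and Aldh8a1 to bounds. No paired analysis was possible because each group has 1 array.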
